A study of Ovis aries and Mus musculus with 10 samples.

Results

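The resting mammary gland was compared between sheep and mouse on 2 of the 10 miRNA arrays of the series, the array of a ewe in cycle at day 15 and that of a virgin CD1 mouse. They were taken by their stage labels, in cycle and virgin, and all 567 mouse miRNAs on the array were examined. No treatment was given, and the other arrays cover gestation days 14, 64 and 125 and lactation day 60 in sheep, and gestation days 10 and 17 and lactation days 2 and 10 in CD1 mice. Each stage and day has 1 array, so no value below has a replicate, and the labels do not say how many animals a sample holds or give the sheep's breed or any animal's age. The probes were designed for mouse. Their match to sheep miRNAs was not tested, and the array of sheep in cycle lay on slide 1 and that of virgin mouse on slide 2, so that species, slide and probe match cannot be told apart in this pair.

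A resting mammary gland is a sparse tree of epithelial ducts in a stroma of fibroblasts, fat, vessels and blood. miRNAs are short RNAs that guide silencing of messenger RNAs, and several are held so tightly to a cell type that they mark it. The miR-200 family keeps cells epithelial by repressing ZEB1 and ZEB2. miR-1, miR-133 and miR-206 belong to striated muscle, miR-451 and miR-144 to the red cell line, and miR-143, miR-145, miR-199 and miR-214 to smooth muscle and fibroblasts.

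Values are given as the log2 of a signal scaled on each array, where 0 is the 75th percentile over a set of 94 miRNAs that every array detected. Signals under a common floor of -5.11 were set to it. Before scaling, that percentile was 1998 in sheep in cycle and 598 in virgin mouse, 3.34 times higher in sheep, and over the 10 arrays it ran from 246 to 1998. A value is compared between arrays for the same miRNA only. Detection is the flag of the scanner software for a miRNA.

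The glands shared most of their detected miRNAs. Of 567 miRNAs, 198 (34.9%) were detected in sheep in cycle and 150 (26.5%) in virgin mouse. Both arrays detected 129, which is 65.2% of the sheep miRNAs and 86.0% of the mouse ones. A further 69 were detected in sheep alone, 21 in mouse alone and 348 in neither, and 48 of these 348 were detected on another array of the series. The sheep array reached lower signals: the lowest probe well above background had a scaled signal of 0.0116 in sheep and 0.0447 in mouse. Only 10 of the 69 miRNAs detected in sheep alone had a scaled signal at or above the mouse limit, and 34 of the 69 were detected on another mouse array. Of the 21 detected in mouse alone, 5 were detected on another sheep array and 16 on none. The array carries 114 star strands, the passenger arms of miRNA hairpins, of which 4 were detected in both, 20 in sheep alone and 3 in mouse alone.

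Among the 129 shared miRNAs the signals of the arrays had a Pearson correlation of 0.69 and a Spearman correlation of 0.64 across miRNAs, which share probes and scaling. The median difference, sheep minus mouse, was 0.12, and 70 of the 129 (54.3%) lay within 2-fold. The difference reached 4-fold in favour of sheep for 9 (6.98%) and in favour of mouse for 16 (12.4%), 25 (19.4%) either way. Of the 129, 18 lay at the floor in sheep and 18 in mouse. These floored values enter the correlations, the median and the fold counts. Over the 94 miRNAs detected everywhere, sheep in cycle correlated at 0.87 to 0.96 with the other 4 sheep arrays and at 0.70 with virgin mouse. Virgin mouse correlated at 0.97 with gestation day 10, the other array of its slide, and at 0.68 to 0.87 with the mouse arrays of slide 1.

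**Figure D1:**
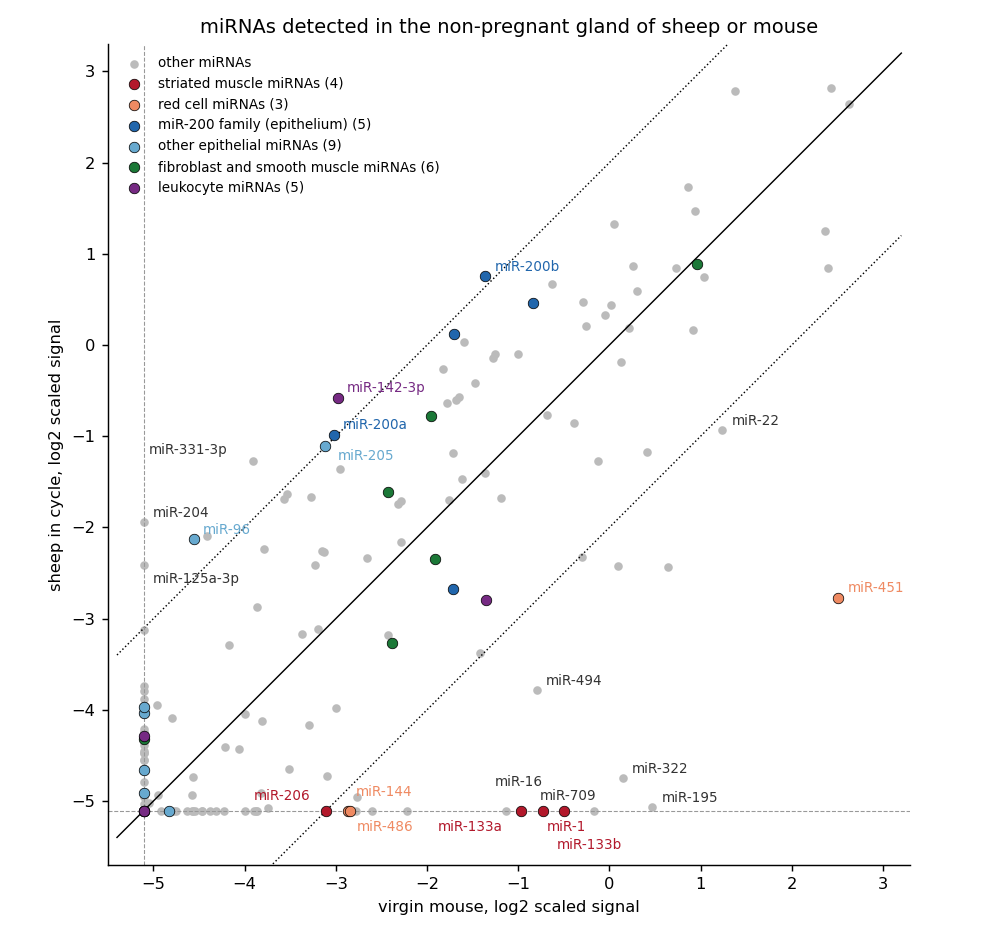
Log2 scaled signal of the 219 miRNAs detected on at least 1 of the 2 arrays, virgin mouse on the horizontal and sheep in cycle on the vertical axis. The solid line marks equal signal, dotted lines a 4-fold difference and dashed lines the floor at -5.11. Coloured points are the listed cell-type miRNAs: muscle and red cell points lie far below the diagonal, and 4 of the 5 miR-200 points lie above it.

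Because neither group has a replicate, the pair was tested in a limma model of all 10 arrays with a mean for each species and stage class. Both lone arrays are assumed to vary like the others. The spread comes from sheep gestation (3 arrays), mouse gestation (2) and mouse lactation (2), which are different days rather than replicates, and nothing in the labels says whether a sample came from separate animals. Of 177 miRNAs tested, 15 (8.47%) were called at an adjusted p under 0.05, 4 (2.26%) higher in sheep and 11 (6.21%) higher in mouse, and 45 had an unadjusted p under 0.05. Leaving out an array of the spread groups gave between 4 and 18 calls, with 4 without sheep gestation day 14 and 9 without sheep gestation day 64, mouse lactation day 10 or mouse lactation day 2. For this pair, leaving out either array of a group of 2 gives the same fit, so that these 7 omissions make 5 distinct fits. miR-451, miR-195 and miR-204 were called in all 5 of them. So was miR-206 in the 4 in which it could be tested, but it lay at the floor on each array left out there. Its spread then rested on the same 2 mouse gestation values, so these 4 fits do not check its call. Without sheep gestation day 14 the other 11 lost their call, with adjusted p of 0.0581 to 0.127. miR-300 and miR-500 lost it without any array of the spread groups that allowed a test, at 0.0529 to 0.127. miR-486 kept it only without sheep gestation day 125, and it could not be tested without a mouse lactation array. let-7c, miR-22, miR-142-3p and miR-144 also lost it without a mouse lactation array (0.0558 to 0.0928), let-7c, miR-142-3p and miR-144 without sheep gestation day 64 (0.0519 to 0.0747), and miR-142-3p without sheep gestation day 125 (0.0515). With slide as a term there were 2 calls, of which miR-451 (-5.15, adjusted p = 0.0326) was among the 15. The other was miR-133b, a muscle miRNA, at -7.79 (adjusted p = 0.0162). Mouse gestation is the only group with arrays on both slides, day 10 on slide 2 and day 17 on slide 1. The slide term is therefore day 10 against day 17, and slide and gestation day cannot be told apart in it.

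Red cell miRNAs were higher in the virgin mouse gland. miR-451, which is cut from its hairpin by AGO2 and is the defining miRNA of red cells, stood at 2.51 in virgin mouse and -2.77 in sheep in cycle, a difference of -5.28 ± 0.36 (standard error; limma adjusted p = 0.00195), or 38.8-fold. On the other mouse arrays miR-451 lay at 0.85, 0.72, 1.33 and 1.94 (gestation days 10 and 17, lactation days 2 and 10) and on the other sheep arrays between -2.52 and -0.71. The virgin value was the highest of the 5 mouse arrays, the sheep value the lowest of the 5 sheep arrays, and the species did not overlap. miR-144, processed from the same transcript and an inhibitor of antioxidant genes in red cells, was not detected in sheep in cycle and stood at -2.86 in virgin mouse, at least 11.9-fold higher (adjusted p = 0.0297). Such a bound is taken against the lowest sheep probe well above background, which lies below the floor, so it exceeds the fold of the floored values in the fit. Its probe target lies on mouse chromosome 11 at 77886549-77886568 and that of miR-451 at 77886689-77886709 (build mm9, from the deposited scanner files). miR-486, listed here with the red cell miRNAs and hosted by the ankyrin gene ANK1, was likewise undetected in sheep in cycle. It stood at -2.85 in virgin mouse, at least 12-fold higher (limma adjusted p = 0.0247). Which cell type gave the miR-486 signal was not tested. Neither miR-144 nor miR-486 exceeded the floor on any of the 5 sheep arrays, and with normexp background correction both had a difference of 0, with no call. All 3 members of the list were thus called, beside 15 of 177 in all, and the virgin array was the highest mouse array for all 3, beside 29 of the 219 detected miRNAs (13.2%). Their summed signal on the scale where 1 is the array's 75th percentile was 5.97 in virgin mouse, 1.72 to 3.96 on the other mouse arrays, 0.15 in sheep in cycle and 0.18 to 0.62 on the other sheep arrays. In both resting glands this sum is nearly all miR-451, so it says little about miR-144 and miR-486. In bulk tissue, fewer cells of a type and less RNA per cell cannot be told apart.

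Striated muscle miRNAs were present in the virgin mouse gland and at the floor in sheep in cycle. Of the 7 members on the array, miR-1, miR-133a and miR-133b were flagged as detected in both glands, miR-206 in mouse alone, and miR-208a, miR-208b and miR-499, the myosin gene miRNAs of heart and slow muscle, in neither. In virgin mouse the values were -0.73 for miR-1, -0.97 for miR-133a, -0.50 for miR-133b and -3.11 for miR-206. In sheep in cycle all 4 lay at the floor of -5.11. miR-206, made in skeletal muscle, was at least 10.0-fold higher in mouse (difference -2.0 ± 0.22, adjusted p = 0.0082) and was the call of the list. Its spread comes from a lone mouse value just above the floor, -5.0 at gestation day 17. For miR-1, which drives muscle differentiation, the difference was -4.38 ± 1.48 (adjusted p = 0.132). It was -4.14 ± 1.00 for miR-133a (adjusted p = 0.0622) and -4.61 ± 1.40 for miR-133b (adjusted p = 0.114), and none of the 3 passed the test at the settings used here. The authors' values gave a call for all 3 (adjusted p = 0.0391, 0.022 and 0.0384). miR-133b was also called with normexp (adjusted p = 0.00882) and with slide as a term, and miR-133a with quantile scaling (adjusted p = 0.0424) and with the percentile over miRNAs of the pair (adjusted p = 0.0455). The slide term rests on mouse gestation day 10 against day 17, where miR-133b stood at the floor and at -1.93. Slide and day cannot be told apart in that call. The floor limits these differences, which were -5.4, -6.14 and -6.03 with a floor 4 times lower and -1.45, -1.25 and -1.64 with normexp. miR-206 had a difference of 0 with normexp, where it was not tested. Nor was it tested with quantile scaling, the percentile over miRNAs of the pair, the authors' values, the brightest probe or slide as a term.

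The muscle signal varied between mouse arrays. At gestation day 17 miR-1 stood at -1.66, miR-133a at -2.80 and miR-133b at -1.93, and at gestation day 10 and both lactation days all 4 muscle miRNAs lay at the floor. Gestation day 10 shared the slide of the virgin array. Among sheep arrays only miR-133b was above the floor, at -4.87 and -4.35 on gestation days 14 and 64. The summed muscle signal was 1.94 in virgin mouse, -0.01 to 0.75 on the other mouse arrays, 0.03 in sheep in cycle and 0.01 to 0.09 on the other sheep arrays. The virgin array was the highest mouse array for all 4 members.

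**Figure D2:**
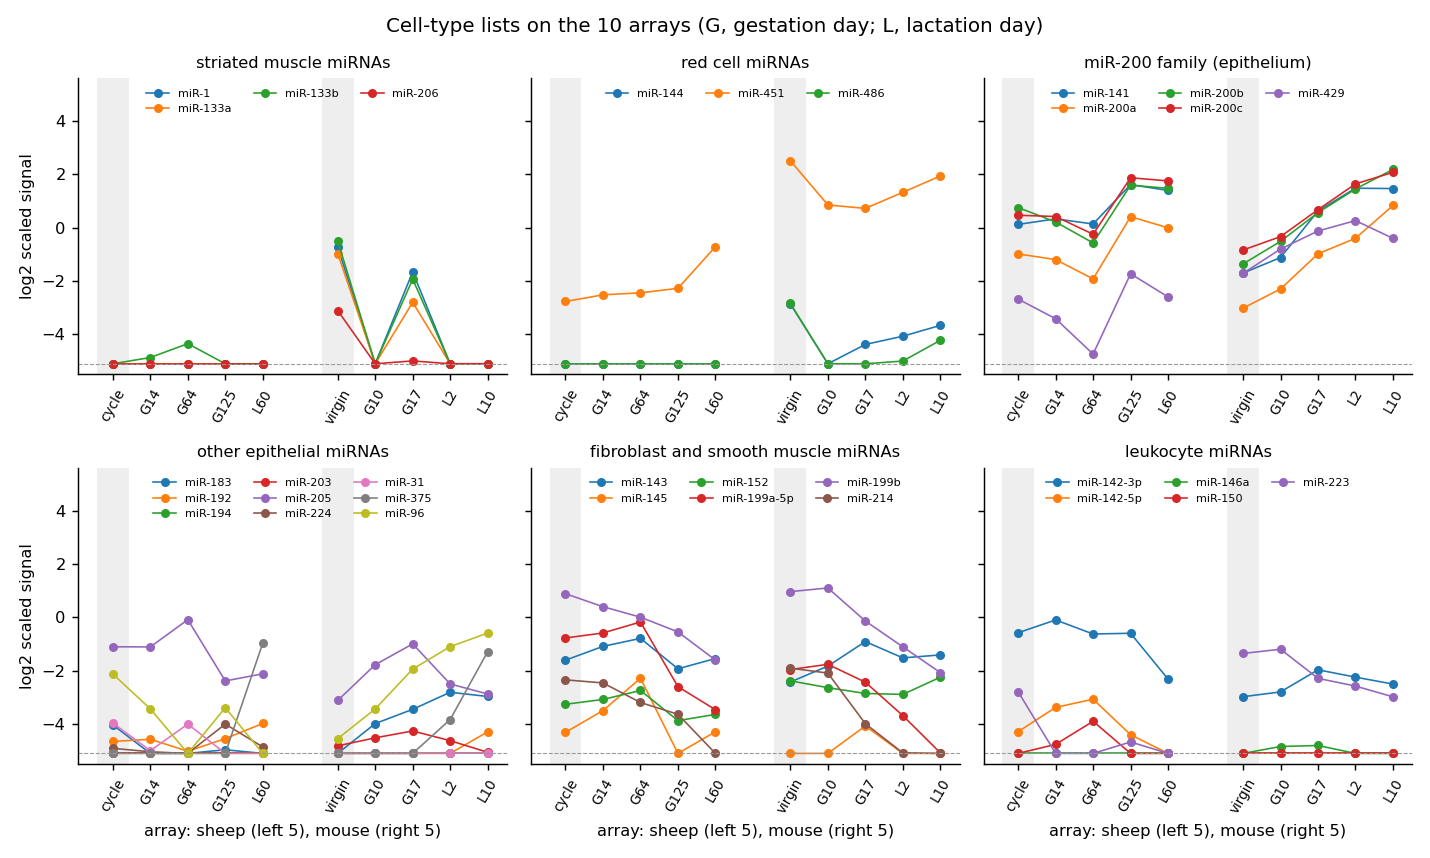
Log2 scaled signal of the detected members of 6 cell-type lists on each array, sheep on the left and mouse on the right of each panel, with the non-pregnant arrays shaded and the floor dashed. Muscle and red cell miRNAs were highest in virgin mouse among mouse arrays, and all 5 miR-200 members were lowest there.

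Most epithelial miRNAs had higher values in sheep, and none passed the test. Of the miR-200 family, miR-200b stood at 0.76 in sheep in cycle and -1.36 in virgin mouse, a difference of 2.12 ± 1.1 (adjusted p = 0.296). miR-200a differed by 2.04 ± 1.29, miR-141 by 1.83 ± 1.03 and miR-200c by 1.30 ± 1.05. miR-429, in a cluster with miR-200a and miR-200b, went the other way, from -2.68 in sheep to -1.72 in mouse (-0.97 ± 1.36). No member was called, and 2 of the 5 passed 4-fold, both higher in sheep. The median of the 5 was 1.83, beside 0.12 over the shared miRNAs, and 1.28 to 1.71 above the shared median over 9 ways of scaling and summarising. Without scaling the shared median itself shifted to 1.86 and miR-429 turned to 0.77. With slide as a term, miR-141 was at 0.08, miR-200c at 0.29, miR-200a at 0.71 and miR-200b at 1.04. That term rests on mouse gestation day 10 against day 17 alone. A slide effect and a change between these days cannot be told apart in it.

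The family was at its lowest mouse level in the virgin gland. All 5 members were lower there than on each of the 4 other mouse arrays, beside 36 of 219 miRNAs (16.4%) that were lowest in virgin mouse. miR-200b ran at -0.52, 0.56, 1.45 and 2.18 on gestation days 10 and 17 and lactation days 2 and 10. In sheep, 1 of the 5, miR-141, was lowest in cycle, at 0.12 against 0.14 to 1.62. The species difference of miR-200b was 2.12 in the resting gland, 0.39 in gestation and -0.34 in lactation, and for miR-141 it was 1.83, 0.94 and -0.08. The test of that change, resting against the mean of the other stages, gave 2.09 ± 1.25 for miR-200b (adjusted p = 0.721), which did not pass.

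Of the 10 other epithelial miRNAs on the array, 5 were detected in both glands, 4 in sheep alone and 0 in mouse alone, and none was called between the pair. miR-205, the miRNA of basal and progenitor mammary cells, stood at -1.11 in sheep and -3.12 in mouse (2.01 ± 1.07, adjusted p = 0.299). miR-96 and miR-183 share a cluster on mouse chromosome 6 with miR-182, which was detected in neither gland, and are best known from sensory epithelium. miR-96 stood at -2.13 in sheep in cycle and -4.55 in virgin mouse (2.42 ± 1.09, adjusted p = 0.242) and miR-183 at -4.04 and the floor (1.07 ± 0.32, adjusted p = 0.114). miR-31 was detected in sheep alone, at least 1.43-fold higher. miR-192 was at -4.66 in sheep and the floor in mouse, and miR-203, a miRNA of stratified epithelium, at the floor in sheep and -4.83 in mouse. miR-224 stood at -4.92 in sheep alone. miR-194 and miR-375 were flagged in sheep alone but lay at the floor on both arrays.

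miR-183 had a species difference at rest that was unlike that of the later stages, and miR-96 had the same order of values without passing the test. miR-183 was at the floor in virgin mouse and between -3.99 and -2.81 on the other mouse arrays, whereas sheep in cycle, at -4.04, was the highest sheep array and the other 4 lay between the floor and -4.97. miR-96 ran from -3.44 to -0.59 on the other mouse arrays and from the floor to -3.39 on the other sheep arrays. The resting species difference minus the mean of the later ones was 2.85 ± 0.37 for miR-183 (limma adjusted p = 0.0315) and 5.20 ± 1.24 for miR-96 (adjusted p = 0.236). miR-206 was the other miRNA called in this test (-1.97 ± 0.25, adjusted p = 0.0315), so that 2 of 177 (1.13%) were called, with 15 at an unadjusted p under 0.05. miR-183 was still called without mouse gestation day 17 (adjusted p = 0.0425) and missed the threshold without each other array, at 0.0562 to 0.176. That range covers the arrays of the spread groups, and leaving out sheep lactation gave 0 calls. In the test on all arrays miR-451 came next after the 2 calls, at -2.51 ± 0.40 (adjusted p = 0.0639).

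No stromal miRNA was called. Of 6 fibroblast and smooth muscle miRNAs on the array, 5 were detected in both glands and miR-145 in sheep alone, and 0 reached 4-fold. miR-199a-5p, made in mesenchymal cells, stood at -0.78 in sheep and -1.96 in mouse (1.18 ± 1.30), and miR-143, of smooth muscle, at -1.61 and -2.43 (0.82 ± 0.67). miR-145, the cluster mate of miR-143, lay at -4.32 in sheep and at the floor in mouse. miR-199b was at 0.89 and 0.96 (-0.08 ± 0.81), miR-214 at -2.35 and -1.91 (-0.44 ± 0.98) and miR-152 at -3.26 and -2.39 (-0.88 ± 0.61). The list median was 0.36 and lay within -0.05 to 0.25 of the shared median in 9 settings, with a sign that turned with normexp, the authors' values and the brightest probe. The summed signals were 3.11 in sheep in cycle and 2.86 in virgin mouse, against 0.91 to 2.93 on the other sheep arrays and 0.86 to 3.13 on the other mouse arrays. The star strand miR-199b* differed more, at -2.44 in sheep and 0.65 in mouse (-3.08 ± 0.99, adjusted p = 0.123). It and miR-214 were at their highest in the resting gland of each species.

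Of the vessel, leukocyte and fat miRNAs, 1 was called. miR-126-3p, the main endothelial miRNA, stood at 0.16 in sheep and 0.91 in mouse (-0.75 ± 0.39, adjusted p = 0.294). miR-142-3p, carried by all blood leukocytes, was higher in sheep, at -0.58 against -2.98 (2.40 ± 0.49, adjusted p = 0.0413). The other sheep arrays ran from -2.32 to -0.10 and the other mouse arrays from -2.80 to -1.97, so that the species overlap through sheep lactation. With the authors' values miR-142-3p lost the call, at 1.34 (adjusted p = 0.35). miR-223, a granulocyte miRNA, stood at -2.80 in sheep and -1.36 in mouse (-1.44 ± 0.58, adjusted p = 0.189). miR-142-5p was detected in sheep alone, at least 1.14-fold higher. miR-150, of mature lymphocytes, and miR-146a, a brake on innate immune signals, were detected in sheep alone and mouse alone and lay at the floor on both. Of the 6 leukocyte miRNAs miR-142-3p was the call. All 6 miRNAs associated with fat cells were detected in both glands and 0 were called. Their median was -1.01, from miR-378 at -2.88 ± 0.93 (adjusted p = 0.123), whose sheep value was at the floor, to miR-193 at -0.04. That median was 0.30 to 1.30 below the shared median in 9 settings. miR-122, the liver miRNA, was detected in neither gland.

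In the miR-15/16 seed family, which represses cell cycle genes such as cyclins, 3 miRNAs were called, all higher in mouse. miR-195 stood at -5.07 in sheep in cycle and 0.47 in virgin mouse (-5.54 ± 0.52, adjusted p = 0.00605). miR-322, the mouse counterpart of miR-424, stood at -4.75 and 0.14 (-4.89 ± 0.69, adjusted p = 0.0161) and miR-16 at the floor and -1.13 (-3.97 ± 0.53, adjusted p = 0.0159). With normexp the differences were -2.51 for miR-195, which was still called (adjusted p = 0.00511), -2.21 for miR-322 (adjusted p = 0.0809) and -1.12 for miR-16 (adjusted p = 0.255). Without scaling miR-195 and miR-322 missed the threshold, at -3.80 (adjusted p = 0.0735) and -3.15 (adjusted p = 0.0568). Their family mates were not called: miR-497 differed by 0.29 ± 0.61, miR-15a by 0.47 ± 0.52 and miR-15b by -0.47 ± 0.92. The same 3 were low on every sheep array, with the other sheep values at or under -4.31 for miR-195 and at the floor for miR-322 and miR-16, while the other mouse arrays lay between -1.86 and 0.96. The species difference in gestation and lactation was -5.54 and -4.20 for miR-195, -4.87 and -3.77 for miR-322, and -4.06 and -3.90 for miR-16.

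The remaining calls were spread over other families. miR-22 stood at -0.94 in sheep and 1.24 in mouse (-2.17 ± 0.37, adjusted p = 0.0241), and let-7c at 0.85 and 2.39 (-1.55 ± 0.26, adjusted p = 0.0241). Without scaling, let-7c turned to 0.19 and miR-22 moved to -0.43 (adjusted p = 0.556), where the shared median was 1.86. miR-500 and miR-300 were detected in mouse alone, at least 5.96-fold and 5.80-fold higher. Higher in sheep were miR-204, a miRNA of eye and kidney epithelium (3.17 ± 0.43, adjusted p = 0.0159), miR-331-3p (2.63 ± 0.43, adjusted p = 0.0241) and miR-23b (1.62 ± 0.26, adjusted p = 0.0241). With the authors' values these 3 lost the call, at 2.19, 1.57 and 0.56 (adjusted p = 0.0933, 0.608 and 0.907). With normexp miR-204 was at 0.64 and could not be tested, and miR-331-3p was at 1.07 (adjusted p = 0.0889). miR-22, let-7c and miR-500 also lost the call with the authors' values, and miR-300 and miR-500 were at 0 with normexp. miR-204 was at the floor in virgin mouse and between -5.11 and -3.74 on the other mouse arrays, against -3.46 to -1.56 on the other sheep arrays. Of the 15 calls, 6 had all 5 sheep arrays at the floor (miR-16, miR-144, miR-206, miR-300, miR-486 and miR-500), so that their spread rests on mouse arrays. Sheep gestation adds no spread for these 6 but still counts among the 4 residual degrees of freedom. The same holds for miR-322, which lay at the floor on the 3 sheep gestation arrays. The standard errors and adjusted p of these miRNAs can therefore be too small.

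**Figure D3:**
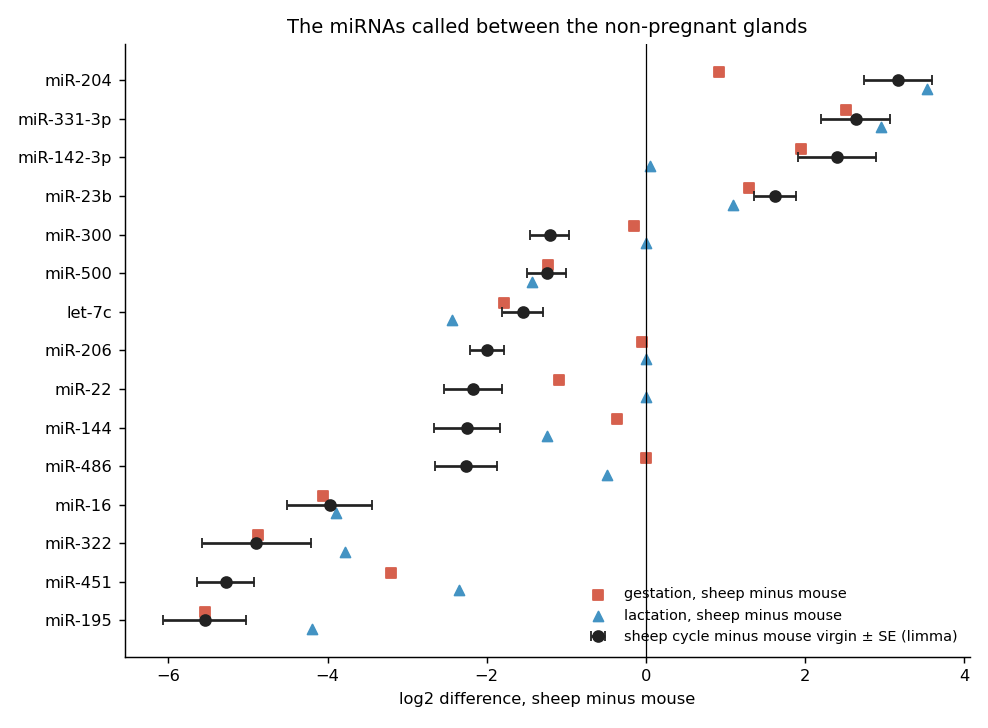
Log2 difference, sheep minus mouse, of the 15 miRNAs called between the non-pregnant glands (circles, with the limma standard error), beside the same difference in gestation (squares) and lactation (triangles). miR-16, miR-500 and miR-331-3p have values close together over the stages, and miR-206 and miR-300 lie near 0 outside the resting gland.

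Of the 15 calls only miR-206 also passed the test of a species difference that changes between the resting gland and later stages. For 12 of the 15 the species difference had the same sign in gestation and in lactation, counted at any size. miR-22 is among these with -0.0019 in lactation. The same share over all miRNAs tested was not counted, so the count has no background to be judged by. miR-331-3p differed by 2.63, 2.51 and 2.95 in the resting, pregnant and lactating gland, and miR-500 by -1.25, -1.23 and -1.43. miR-206 and miR-300 differed by -2.0 and -1.21 at rest and by -0.05 and -0.15 in gestation, and both were at the floor in lactation. miR-22 differed by -2.17 at rest, -1.1 in gestation and -0.0019 in lactation, and the test of that change gave an adjusted p of 0.237.

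Other large differences did not pass the test. miR-709 stood at the floor in sheep and -0.17 in mouse (-4.93 ± 1.16, adjusted p = 0.062). miR-494 stood at -3.79 and -0.80 (-2.99 ± 1.97), and sheep gestation day 64 reached 0.64. miR-1224 stood at -2.42 and 0.10 (-2.52 ± 1.73). In sheep's favour were miR-125a-3p (2.69 ± 2.49), miR-19a of the miR-17 cluster (2.32 ± 1.18), miR-181a (1.98 ± 1.01), miR-30b (1.9 ± 0.69) and miR-361 (1.88 ± 0.41, adjusted p = 0.051). miR-184, known from cornea and lens, was detected on the virgin mouse array and on no other, at -2.60 and at least 14.3-fold above sheep in cycle, the largest bound of any miRNA detected on 1 of the pair. The next bounds in that direction were those of miR-486, miR-144 and miR-206. In the other direction bounds were small: the largest for a miRNA detected in sheep alone were 1.62-fold for miR-221 and 1.51-fold for miR-320, and 59 of the 69 had none above 1.

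miRNAs encoded close together in the mouse genome could differ by unlike amounts. Of 127 shared miRNAs with a mouse position, 57 fell into 22 clusters with under 10000 bases between neighbours. The range of the differences within a cluster had a median of 1.38, was under 1 in 8 clusters and was 2 or more in 7. miR-497 and miR-195, 351 bases apart end to end on mouse chromosome 11 (70048234-70048584, mm9), differed by 0.29 and -5.54. miR-15a and miR-16, within 160 bases on chromosome 14 (62250773-62250932), differed by 0.47 and -3.97. On chromosome X (50402630-50407504), miR-322 at -4.89 lay beside miR-542-5p at 0.56 and miR-503 at -0.79. Both neighbours were dim: miR-542-5p stood at -4.55 in sheep and the floor in mouse, and miR-503 at the floor and -4.32. The floor limits the differences of these neighbours, so their contrast with miR-322 is partly set by it. The 5 shared miRNAs of the miR-17 cluster were all higher in sheep, from 0.90 to 2.32, and the muscle miRNAs miR-1 and miR-133a differed by -4.38 and -4.14. Several of these miRNAs have further genomic copies, and the position is the one listed on the array.

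**Figure D4:**
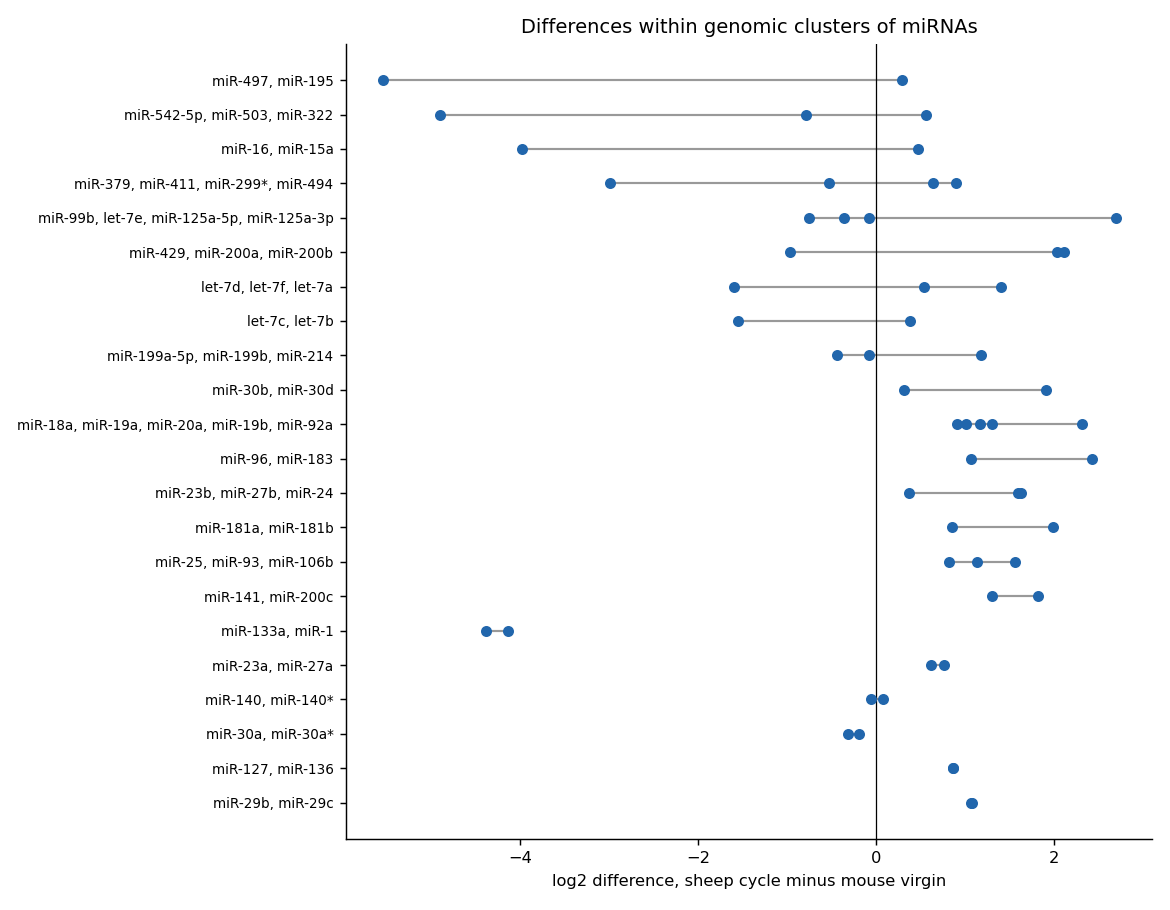
Log2 difference, sheep in cycle minus virgin mouse, of shared miRNAs grouped by genomic cluster, 1 line per cluster with 1 point per miRNA, ordered by range. The widest lines, at the top, are those of miR-195, miR-322 and miR-16, whose neighbours lie between -0.79 and 0.56. The neighbours of miR-322 were at or near the floor on both arrays, which limits their differences.

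Few members of the other families were called. The let-7 family, which holds cells differentiated, was detected in full in both glands with a median of -0.03, from let-7d at -1.59 ± 0.67 to let-7a at 1.40 ± 0.52. The miR-17 cluster and its paralogs, which promote proliferation, had a median of 1.14 over 11 detected members, 0.54 to 1.04 above the shared median in 9 settings, with 0 called. The miR-26 family had 1.21 (0 of 2 called), the miR-29 family, which restrains collagen genes, 1.07 (0 of 3), and the miR-23/27/24 clusters 0.76 (1 of 5). The miR-30 family had a median of 0.32, and all 5 members were at their lowest mouse level in the virgin gland. For the Hox cluster miRNAs the median was -0.43, for the miR-99/100 and miR-125 clusters 0.42, and for the milk miRNAs miR-148 and miR-152 0.00, with miR-148a at -1.70 in sheep and -1.76 in mouse. The neural list had 3 of 7 members detected, at 0.03 in the median. Of 47 miRNAs from the imprinted Dlk1-Dio3 locus 20 were detected, 6 in both glands, 8 in sheep alone and 6 in mouse alone, and 1 was called (miR-300).

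The rank of the resting array within its species was described for each miRNA. The virgin array held the highest mouse value for 29 of 219 (13.2%) and the lowest for 36 (16.4%), and the cycle array held the highest sheep value for 36 (16.4%) and the lowest for 11 (5.02%). Beside these counts, 7 were higher on each resting array than on the other 4 of its species: miR-127, miR-379 and miR-410 of the Dlk1-Dio3 cluster, miR-214, miR-199b*, miR-27a and miR-218. miR-379 stood at -2.25 in sheep in cycle and -3.15 in virgin mouse, against at most -2.47 and -3.91 on the others, and miR-127 at -2.27 and -3.13, against at most -2.28 and -3.80. Another 4 were lowest in both, namely miR-141, miR-181a, miR-30a and miR-30a*. miR-22, miR-451 and miR-494 were highest in virgin mouse and lowest in sheep in cycle, and miR-96, miR-183, miR-30c and miR-30e were the reverse. These ranks rest on 1 array each, and several margins are small: 0.0065 for miR-127 in sheep, 0.084 in sheep and 0.056 in mouse for miR-218, and 0.10 and 0.046 for miR-27a.

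A sheep miRNA gene of the same name was found in the RefSeq gene table (assembly ARS-UI_Ramb_v3.0) for 119 of the 567 miRNAs, 44 of the 129 shared, 24 of the 69 detected in sheep alone and 2 of the 21 detected in mouse alone. The median difference was 0.48 for the shared miRNAs with such a gene and 0.00 for those without. A 4-fold difference was reached by 4 of the 44 with one and 21 of the 85 without. The table names a minority of miRNAs, so a missing name does not show that sheep lack the miRNA.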

How the data were processed

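RNA of snap-frozen mammary tissue was hybridised to Agilent 1-colour miRNA arrays, 1 per stage and day. The deposited scanner files hold spot intensity, and their processed signal had its background subtracted and was detrended, array by array, per the file headers. The headers name Feature Extraction 10.5.1.1, and the submitters' processing notes 9.5. Detection, outlier and well-above-background flags of 0 or 1 were set by that software, per the file headers. The authors' deposited value table, also an intensity, matched Agilent's total signal per miRNA times 1 constant per array, within 0.1% for 98.6% to 100% of miRNAs. The basis of these constants, and so their scale and centring, is not stated. Its column medians were -0.526 in sheep in cycle and -11.2 in virgin mouse, and -11.6 to 0.836 over all arrays.

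Spots flagged as outliers were left out, and spots and then probes were averaged for each miRNA (11340 spots per array, 1672 probes, 0 saturated). Arrays were divided by their 75th percentile over the 94 miRNAs detected on all 10. Values were then floored at 0.029, the highest 5th percentile of detected miRNAs, and put on the log2 scale. limma 3.58.1 (R 4.3.3) fitted 6 means with 4 residual degrees of freedom to miRNAs detected on at least 3 arrays. Of 213 such, 36 without residual spread were not tested. Calls have a Benjamini-Hochberg adjusted p under 0.05. A miRNA detected on 1 array of the pair has a bound: the bright value over the higher of the dim value and the lowest probe well above background on the dim array. The fit was tested on simulated data without a floor, with the same spread for all miRNAs, set below the pooled spread of the arrays. That test does not cover floored values or unequal spreads. The number of arrays limits the precision, and p-values measure only the spread between these arrays.

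The members and the 21 lists were chosen with earlier results of these data known. Named miRNAs are the detected members of the muscle, red cell, stromal, endothelial, leukocyte and epithelial lists, the 12 largest differences each way among shared miRNAs, the 8 largest bounds each way, the calls of the resting-gland contrast, and the highest and lowest member of each other list. The remaining calls and those named for rank or cluster were added after their values were seen. Alternatives covered background correction, scaling, floor, probe summary, filter, slide and single arrays.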

Additional observations from a re-analysis of the deposited data

Results flagged for a closer look

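The species difference in the resting gland departed from that of gestation and lactation for miR-183 and miR-206, by a test of the difference itself. For miR-183 the departure was 2.85 (adjusted p = 0.0315), and sheep in cycle was the highest sheep array while virgin mouse was the lowest mouse array. It was 0.15 with normexp (adjusted p = 0.975) and between 1.91 and 4.95 in the other settings that tested it, with an adjusted p of 0.0306 to 0.344. For miR-206 the departure was -1.97 (adjusted p = 0.0315), from -3.11 in virgin mouse against values at or next to the floor on the other 9 arrays. It was -2.23 with the percentile over all miRNAs, -3.47 with a lower floor (adjusted p = 0.31) and -2.14 without scaling (adjusted p = 0.38). With normexp, quantile scaling, the percentile over miRNAs of the pair, the authors' values, the brightest probe or slide as a term it was not tested. Without mouse gestation day 10 or day 17 it had no residual spread and could not be tested, and without any other array of the spread groups its adjusted p was 0.0816 to 0.176.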

How the results depend on the processing

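Between the pair, the 15 calls became 39 without scaling (31 higher in sheep, 8 in mouse, as the shared median shifted to 1.86) and 26 with a floor 4 times lower. They became 1 among miRNAs above the floor on all 10 arrays, where 74 were tested, and 2 with slide as a term, and 4 to 18 when an array was left out. Normexp, quantile scaling, the other percentiles, the authors' values, the brightest probe and no filter gave 10 to 18. The calls were not always the same miRNAs. Among the 15 were 6 of the 10 with normexp, 11 of the 16 with quantile scaling and 7 of the 11 with the authors' values. Without scaling 11 of the 39 were among them, and with a lower floor 13 of the 26. The percentile over all miRNAs shared 9 of its 10 calls and that over miRNAs of the pair 14 of its 18. The brightest probe shared 13 of 14, and no filter gave the same 15. Quantile scaling split its calls 7 to 9 and the authors' values 0 to 11, against 4 to 11 in the main result. Normexp put the shared median at 0.00, quantile scaling at 0.24 and the authors' values at -0.77. let-7c turned from -1.55 to 0.19 without scaling. miR-451 kept its call in all 11 settings.

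The 2 calls of the resting-gland contrast became 0 with normexp, quantile scaling, no scaling, the percentile over miRNAs of the pair, the authors' values, a lower floor and the filter to miRNAs above the floor (12, 16, 22, 16, 17, 20 and 3 at an unadjusted p under 0.05 by limma). There was 1 call with slide as a term, which was neither of the 2, and there were 4 with the brightest probe, of which 1 was among the 2. Leaving out an array gave 0 to 2 calls, and the 2 without mouse gestation day 17 held 1 of them.

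List medians moved as follows. The miR-200 median of 1.83 was 3.57 without scaling and 0.76 with the authors' values. The muscle median of -4.26 was -1.35 with normexp and -5.72 with a lower floor. The red cell median of -2.26 was 0.00 with normexp, -2.71 without scaling, -3.11 with the authors' values, -4.26 with a lower floor and -1.89 with the brightest probe. The fibroblast median of 0.36 was 2.11 without scaling and -0.69 with the authors' values. Where over 50% of the spots had to be well above background, both glands shared 75 miRNAs, mouse had 85 in all and 10 alone. Where a value above the floor was required, sheep had 127 in all and 30 alone, mouse 126 and 29, and both shared 97.

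The 81 named or called miRNAs were each compared with the main result at the other settings, 1 comparison per miRNA and setting. Of these 831 comparisons, 557 kept direction and side of the threshold or moved less than the spread. A call was lost in 45 and gained in 28, 200 moved and 1 turned. The cause was not tested. No paired analysis was possible because no label ties an array of either species to a numbered animal. Restriction to miRNAs of identical sheep and mouse sequence was not run, as sequences were not analysed here.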
